A study of Mus musculus with 24 samples.

Results

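The genes described here are 10 members of the ADAMTS family, taken by name from the mouse liver count table of a study of liver fibrosis: 9 secreted metalloproteases (Adamts1, Adamts2, Adamts4, Adamts5, Adamts9, Adamts12, Adamts13, Adamts14 and Adamts15) and the ADAMTS-like protein gene Adamtsl2. All 10 were among the 56205 genes of the table and among the 17913 genes with enough counts to be tested. The table held whole-liver poly(A) RNA-Seq of C57BL/6J mice that carried no engineered allele and ate a high-fat diet (12 libraries, labelled FFD_mouse) or its control diet (12 libraries, labelled FFD_Ctrl_mouse) for 20 weeks. Per the methods, the high-fat diet was rich in palm oil, fructose and cholesterol, the mice were young adults at the start, and both sexes were used, but the labels name no sex for any library. The comparison asked which genes differ in a diet model of fatty liver disease and fibrosis.

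ADAMTS proteases carry a zinc-dependent catalytic domain followed by thrombospondin repeats that hold them to the extracellular matrix. ADAMTS2 and ADAMTS14 cut the N-terminal propeptide from fibrillar procollagens, ADAMTS1, 4, 5, 9 and 15 cleave versican and related hyaluronan-binding proteoglycans, ADAMTS12 cleaves cartilage oligomeric matrix protein (COMP), and ADAMTS13 trims von Willebrand factor in the blood. ADAMTS-like proteins keep the thrombospondin repeats but have no protease domain, and ADAMTSL2 binds fibrillin-1 and the latent TGF-β binding protein LTBP1. In the liver, hepatic stellate cells, the main source of scar collagen, are known as a site of ADAMTS13 production.

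The sequence that separates the proteases from Adamtsl2 is the catalytic zinc site. The lines below give the coding strand of that site for each protease, 5′ to 3′, from the longest coding transcript in GENCODE M21 (GRCm38, the assembly also named mm10). Each stretch is 33 bases long, and the capitals mark the codons of the 3 histidines that hold the zinc ion.
Adamts2: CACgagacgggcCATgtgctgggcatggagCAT
Adamts14: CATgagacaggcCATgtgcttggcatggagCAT
Adamts1: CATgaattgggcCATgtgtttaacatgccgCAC
Adamts4: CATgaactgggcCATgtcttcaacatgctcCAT
Adamts15: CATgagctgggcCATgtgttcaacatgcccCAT
Adamts9: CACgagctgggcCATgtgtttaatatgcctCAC
Adamts5: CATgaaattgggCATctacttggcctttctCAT
Adamts12: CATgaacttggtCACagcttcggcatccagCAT
Adamts13: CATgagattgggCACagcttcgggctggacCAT
In each of the 9 proteases the stretch was found once and crossed an exon boundary. In Adamts2 it ran from exon 7 (chr11:50775403-50775419) into exon 8 (chr11:50776119-50776134). The 957 codons of Adamtsl2 held no match. The procollagen N-proteinases Adamts2 and Adamts14 shared 30 of 33 bases, as did Adamts4 and Adamts15. Adamts1 and Adamts13 shared 16 of 33, the fewest of any pair together with Adamts9 and Adamts13. Adamts1, which was not called higher or lower, shared 28 of 33 bases with Adamts9 and with Adamts15, which both rose.

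Of the 10 members, 8 were higher on the high-fat diet, none was lower, and Adamts1 and Adamts13 did not pass the test. Calls required an adjusted p no higher than 0.01 (edgeR quasi-likelihood test, adjusted over all 17913 genes) and an absolute log2 fold change over 0.5. Levels are given in CPM, counts scaled to library size. Over all genes, 13.2% were called higher and 4.99% lower, which is 2372 and 894 genes. Scaling by library totals alone gave 3827 and 226. The median log2 fold change of the members was 1.50, and that of all genes tested was -0.03. In the edgeR fit 0 members had a negative change at an unadjusted p under 0.05, and DESeq2 and limma-voom also called 0 members lower. No member separated the diets in every library, where 1.48% of all genes did so with the high-fat diet higher. In whole liver, fewer cells of a type and less RNA per cell cannot be told apart.

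**Figure D1:**
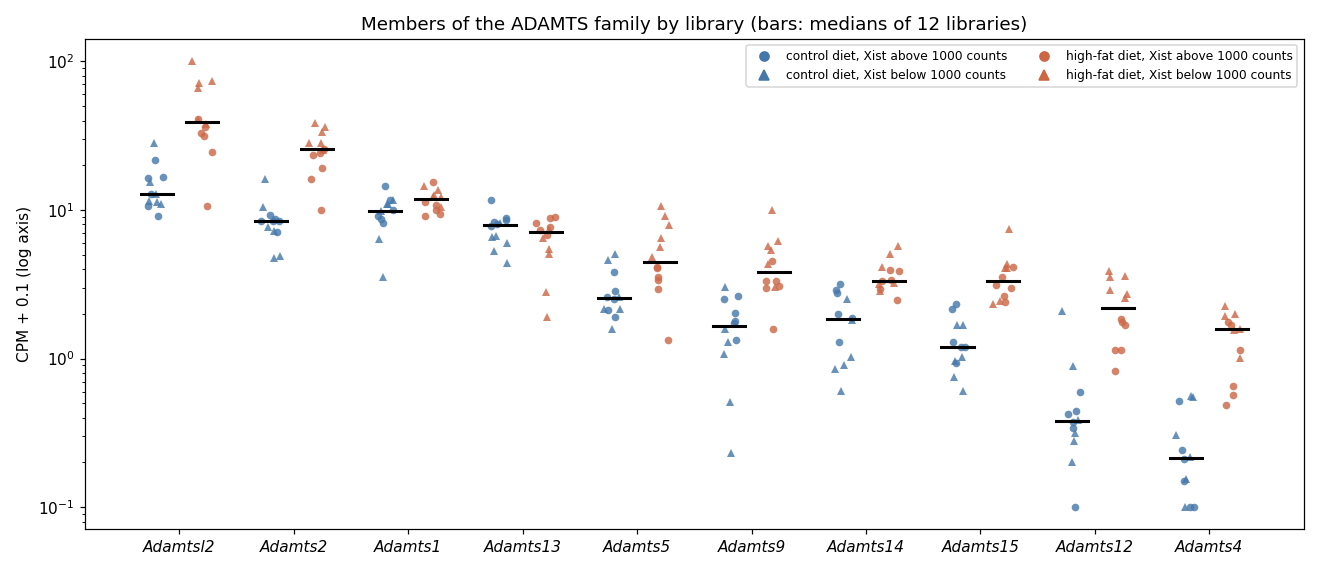
Level of each member in each of the 24 libraries, as CPM (counts scaled to library size) plus 0.1 on a log axis, with members ordered by their mean on the high-fat diet. Blue points are the control diet, orange points the high-fat diet, circles and triangles libraries with more or fewer than 1000 Xist counts, and bars the medians of 12 libraries. The medians of Adamts12 and Adamts4 are farthest apart, and those of Adamts1 and Adamts13 lie close together.

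Depth ran from 14468418 to 22112552 counts per library, and 3 counts were worth 0.161 CPM on average. Scaling factors (TMM) were 0.994 to 1.34 in high-fat and 0.679 to 1.01 in control livers, with high-fat replicate 9 highest and control replicate 10 lowest. Without both of these libraries 8 members were still called higher. In each diet replicates 1 to 6 held at least 2664 counts of Xist, the RNA that silences an X chromosome, and replicates 7 to 12 held at most 3. These sets of 6 are used below as sets of libraries only. Among markers of other liver cells, 4 of 5 hepatocyte genes were lower. Higher were 5 of 6 genes of activated stellate cells and myofibroblasts, 5 of 5 of monocyte-derived macrophages and 3 of 4 of cholangiocytes. So were 2 of 4 each of portal fibroblasts and continuous endothelium. The stellate and myofibroblast gene not called was Acta2 (log2 change 0.53, edgeR adjusted p = 0.0300). Of that list, Col1a1, Col1a2, Col3a1 and Timp1 are also counted below among the substrates and inhibitors. Of sinusoidal endothelial, resident macrophage, vascular smooth muscle and T cell markers, 1 of 5, 1 of 4, 0 of 3 and 0 of 3 were higher and none lower. The hepatocyte markers were the most abundant of these lists in every library, with a summed level of 37385 to 90738 CPM in high-fat livers and 86415 to 129491 CPM in control livers. The part of these shifts in the values of the members was not tested.

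Both collagen-processing proteases rose. Adamts2 (ENSMUSG00000036545, chr11:50602084-50807573, plus strand) lay between 9.91 and 38.7 CPM in high-fat livers (median 25.5), against 4.66 to 15.97 CPM in control livers (median 8.36). In 11 of 12 high-fat libraries it was above the highest control library, and the exception was replicate 3. The difference was 1.61 on the log2 scale (SE 0.19, edgeR adjusted p = 1.07e-06), a 3.06-fold rise. Its paralog Adamts14 (ENSMUSG00000059901, chr10:61197112-61273438, minus strand) ran from 2.39 to 5.66 CPM with a median of 3.24, against 0.509 to 3.05 with a median of 1.74. The diets overlapped in 3 high-fat libraries. Adamts14 rose by 1.05 on the log2 scale (SE 0.24, edgeR adjusted p = 0.00104).

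Their substrates moved further. Col1a1, the main chain of type I collagen, rose by 3.12 on the log2 scale (SE 0.42, edgeR adjusted p = 4.09e-06), Col1a2 by 2.41 and Col3a1 by 2.60. The median log2 ratio of Adamts2 to Col1a1 was -2.001 in high-fat livers (range -2.67 to -1.07) and -0.28 in control livers (range -1.78 to 0.45). Thus 9 of 12 high-fat libraries were below the lowest control library. The means differed by -1.68 (two-sided permutation test, adjusted p = 8e-05 over 4 ratios). For Adamts14 and Col1a1 the medians were -4.88 and -2.83, and the difference was -2.11 (permutation test, adjusted p = 8e-05), with 8 of 12 high-fat libraries below every control library. Both ratios fell in each set of 6 libraries taken alone (exact permutation tests, adjusted p = 0.013 and 0.00866 with Xist above 1000 counts, 0.00289 for both below). The N-proteinase transcripts thus rose less, as a fold, than the Col1a1 transcript.

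The enzyme for the other end of procollagen went the other way. Bmp1, which removes the C-terminal propeptide, fell by 0.76 on the log2 scale (SE 0.11, edgeR adjusted p = 8.26e-06), from 174.7 ± 26.2 to 103.2 ± 22.3 CPM (SD, n = 12 per diet). This call depended on the scaling. With library totals in place of TMM, 0 of the 25 tested substrate, partner and regulator genes, Bmp1 included, were called lower. The 5 hepatocyte markers had a median log2 change of -0.72, and the part of cell composition in the fall of Bmp1 was not tested. Pcolce, which enhances that cleavage, rose from 10.5 ± 2.98 to 23.0 ± 6.74 CPM, a log2 change of 1.12 (SE 0.16), with no overlap between the diets. The other 2 tested genes of C-terminal processing, Tll1 and Pcolce2, were not called.

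**Figure D2:**
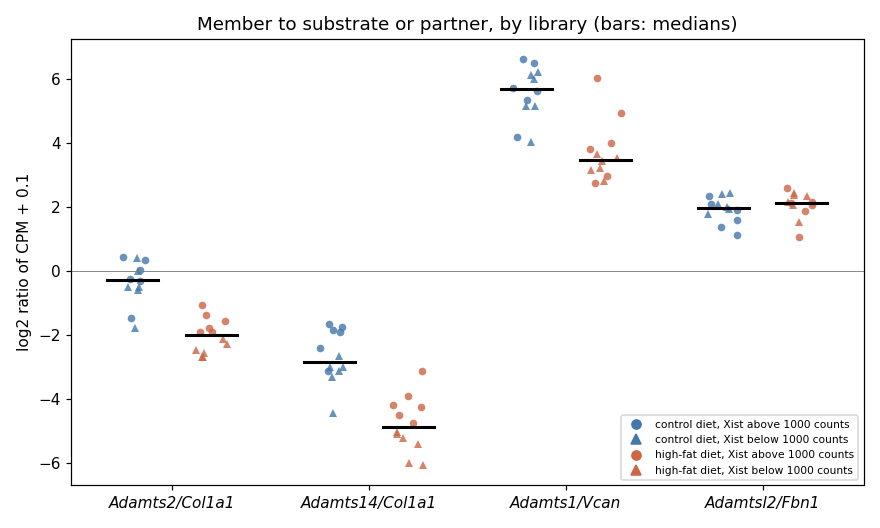
Log2 ratio of a member to its substrate or binding partner in each library, from CPM plus 0.1, with bars at the medians of 12 libraries per diet. The ratios of Adamts2 and Adamts14 to Col1a1 and of Adamts1 to Vcan are lower on the high-fat diet, while the medians of Adamtsl2 to Fbn1 are 2.15 and 1.98.

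Adamtsl2 (ENSMUSG00000036040, chr2:27079379-27108981, plus strand) was the most abundant member on both diets. It ranged from 10.6 to 100.4 CPM in high-fat livers (median 39.1) and from 8.96 to 28.2 CPM in control livers (median 12.7). High-fat replicates 3 and 4 fell within the control range, and replicate 9 held the highest value. The rise was 1.68 on the log2 scale (SE 0.26, edgeR adjusted p = 2.31e-05), or 3.20-fold. Its partner Fbn1, the microfibril protein fibrillin-1, rose by 1.46 (SE 0.24, edgeR adjusted p = 4.45e-05) and Ltbp1 by 1.07 (SE 0.17). Ltbp1 changed by 1.33 with Xist below 1000 counts and by 0.80 above, the latter not called (edgeR adjusted p = 0.0148). The difference of Fbn1 was 2.06 in libraries with Xist below 1000 counts and 0.70 above (adjusted p = 0.0247, not called), with an interaction of diet and set of 1.35 (edgeR adjusted p = 0.0202). Fbn2, a fibrillin prominent in development, had 272 counts over the 12 high-fat libraries and 7 over the 12 control libraries. A single high-fat library held 146 of the 272, and the high-fat median was 6 counts. The log2 ratio of Adamtsl2 to Fbn1 averaged 2.08 ± 0.42 in high-fat and 1.93 ± 0.41 in control livers (SD), a difference of 0.14 that the permutation test did not separate from 0 (adjusted p = 0.405).

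Among the proteoglycan-cleaving proteases the relative rises differed widely. Adamts4 (ENSMUSG00000006403, chr1:171250421-171260637, plus strand) was nearly silent in control livers, with 0 to 9 counts and a median of 2, and had 7 to 44 counts (median 28.5) in high-fat livers. In 3 control libraries it was at 0, and 11 of 12 high-fat libraries were above every control library. The fitted difference was 2.89 on the log2 scale (SE 0.46, edgeR adjusted p = 2.82e-05), from 319 counts in all in high-fat livers and 36 in control livers. Adamts15 (ENSMUSG00000033453, chr9:30899155-30922452, minus strand) ran from 2.22 to 7.31 CPM, with a median of 3.24, against 0.509 to 2.23 with a median of 1.09. Only high-fat replicate 7 lay within the control range. Adamts15 rose by 1.52 on the log2 scale (SE 0.23, edgeR adjusted p = 1.64e-05).

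Adamts9 (ENSMUSG00000030022, chr6:92772699-92943492, minus strand), a versican-cleaving protease active at the cell surface, ran from 1.49 to 9.98 CPM with a median of 3.71, against 0.132 to 2.95 with a median of 1.55. In 9 of 12 high-fat libraries it was above the control range. It rose by 1.48 on the log2 scale (SE 0.31, edgeR adjusted p = 6.06e-04). Adamts5 (ENSMUSG00000022894, chr16:85856173-85901828, minus strand), the main aggrecan-cleaving protease of mouse cartilage, showed the weakest call. It ran from 1.23 to 10.5 CPM with a median of 4.39, against 1.47 to 4.99 with a median of 2.45, and 5 of 12 high-fat libraries were above every control library. The change was 0.95 (SE 0.26, edgeR adjusted p = 0.00597), and the call was lost when any 1 of 9 libraries was left out, with adjusted p up to 0.0145.

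Adamts1 (ENSMUSG00000022893, chr16:85793827-85803113, minus strand) was the third most abundant member in CPM on the high-fat diet and did not pass the test. Its level was 9.02 to 15.2 CPM in high-fat livers (median 11.7) and 3.46 to 14.4 CPM in control livers (median 9.81). The ranges overlapped in 11 of 12 high-fat libraries, and the log2 difference was 0.29 (SE 0.15, edgeR adjusted p = 0.118). With library totals in place of TMM it was 0.57 and passed (adjusted p = 0.00969), under a scaling that moved the median of all genes to 0.26. Adamts1 lies 53059 bp from Adamts5 on the same strand of chromosome 16.

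Versican, the shared substrate of these proteases, was scarce. Vcan had 234 counts over the high-fat libraries and 31 over the control libraries. It rose by 2.67 on the log2 scale (SE 0.51, edgeR adjusted p = 1.91e-04). Its change was 2.91 with Xist below 1000 counts (adjusted p = 0.0014). Above 1000 counts it was 2.33 and not called (edgeR adjusted p = 0.0421). The log2 ratio of Adamts1 to Vcan differed by -1.87 between the diets (permutation test, adjusted p = 1.87e-04), and by -0.43 with a pseudocount of 1 (adjusted p = 0.0301). Vcan was at 0 in 4 control libraries. Acan and Bcan, 2 other substrates of this group, had 0 counts in every library, and the substrate genes Ncan and Col2a1, with at most 1 and 2 counts in any library, were not tested.

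Adamts12 (ENSMUSG00000047497, chr15:11064790-11349231, plus strand) had 13 to 83 counts in high-fat livers (median 39) and 0 to 35 counts in control livers (median 5). In CPM this was 0.725 to 3.77 against 0 to 1.98. The control library with 35 counts was replicate 11, and the next highest was at 0.789 CPM. The difference was 2.31 on the log2 scale (SE 0.42, edgeR adjusted p = 1.23e-04), and 2.86 without that library. Its substrate Comp, at a median of 1 count in high-fat and 0 in control livers, was not called.

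Adamts13 (ENSMUSG00000014852, chr2:26973416-27009628, plus strand) stood apart from the members that rose. It lay between 1.82 and 8.92 CPM in high-fat livers (median 6.96) and between 4.28 and 11.6 CPM in control livers (median 7.84). High-fat replicates 9 and 12 were below the lowest control library, and the other high-fat libraries lay within the control range. The log2 difference was -0.24 (SE 0.20, edgeR adjusted p = 0.355), and it was 0.0048 with library totals. Its substrate Vwf, the clotting protein of continuous endothelium, rose by 0.90 (SE 0.25, edgeR adjusted p = 0.00679). Vwf was called in neither set of libraries alone. Its change was 1.03 with Xist above 1000 counts (edgeR adjusted p = 0.101) and 0.79 below (adjusted p = 0.0242). In 4 of 12 high-fat libraries Vwf was above every control library, with a high-fat median of 10.8 CPM and a highest value of 47.8 CPM. Of 6 markers of quiescent stellate cells, 1 (Des) was higher and 5 were not called, with a median log2 change of 0.24.

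Adamts13 and Adamtsl2 lie 69750 bp apart on chromosome 2 and are read from the same strand. Adamtsl2 rose, while Adamts13 was not called. The 250 bases before each start site are shown for this pair (RefSeq, GRCm38.p6, plus strand, chr2:26973166-26973415 for Adamts13 and chr2:27079129-27079378 for Adamtsl2). Capitals mark matches to the motifs searched on both strands over the full promoter windows.
Adamts13: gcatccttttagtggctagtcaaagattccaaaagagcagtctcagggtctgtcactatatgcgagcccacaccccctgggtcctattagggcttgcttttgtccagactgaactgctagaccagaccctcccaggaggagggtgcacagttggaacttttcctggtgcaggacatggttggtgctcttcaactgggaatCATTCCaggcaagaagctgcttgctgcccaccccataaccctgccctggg
Adamtsl2: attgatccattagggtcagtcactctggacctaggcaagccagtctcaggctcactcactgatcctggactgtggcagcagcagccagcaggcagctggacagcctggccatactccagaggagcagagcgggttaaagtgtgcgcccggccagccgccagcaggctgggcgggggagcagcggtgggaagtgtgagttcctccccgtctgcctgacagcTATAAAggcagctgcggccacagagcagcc
The motifs searched were TATAAA, known as the TATA box, and the core motif of TEAD factors, CATTCC. The others were the RUNX core TGTGGT, the AP-1 site TGANTCA and the SMAD motif CAGACA. The TATA box began 30 bases before the Adamtsl2 start, with its first base at position -30, and stood at -32 in Adamts1. The TEAD core stood at -50 in Adamts13. Promoters of 7 members were found in the RefSeq table, and the other motifs were in none of them. Of all 32851 promoters of the same length, 13.6% held the TATA box, 14.7% the TEAD core, 16.8% the RUNX core, 7.81% the AP-1 site and 21.0% the SMAD motif. No match overlapped another in these promoters. Of the members with a TATA box, Adamtsl2 rose and Adamts1 was not called.

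Per kilobase of exon, the order of the levels changed with diet. On the control diet it was led by Adamtsl2 at 1.84 ± 0.69 CPM per kb, Adamts1 at 1.80 ± 0.53 and Adamts13 at 1.51 ± 0.39 (SD, n = 12), which overlapped within 1 SD. Adamts2 followed at 0.897 ± 0.312. On the high-fat diet Adamtsl2 stood at 5.91 ± 3.18 CPM per kb and Adamts2 at 2.75 ± 0.88, ahead of Adamts1 at 2.20 ± 0.37 and Adamts13 at 1.28 ± 0.45. In that order the only neighbours more than 1 SD of each apart were Adamts1 and Adamts13. Adamts4 and Adamts12 were the lowest pair on both diets, at 0.035 and 0.040 CPM per kb in control and 0.267 and 0.201 in high-fat livers.

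The diet difference was then taken within each set of 6 libraries per diet. With Xist below 1000 counts, the same 8 members were called higher, where 14.4% of all genes were. With Xist above 1000 counts, 3 members were called (Adamts2, Adamts12 and Adamts15), where 2.9% of all genes were. Adamts9 rose by 2.23 on the log2 scale in the first set (SE 0.46, edgeR adjusted p = 0.00172) and its difference in the second was 0.68 (SE 0.24, adjusted p = 0.0738). For Adamts14 these values were 1.71 and 0.54, for Adamts5 1.36 and 0.31, and for Adamtsl2 2.13 and 1.03. Adamts4 and Adamts12 differed little between the sets, at 2.88 and 2.88 and at 2.34 and 2.18. A difference between the sets was not established for any member: in the edgeR test of the interaction of diet and set 0 of 10 passed an adjusted p of 0.05, where 10.2% of all genes did. At an unadjusted p under 0.05 there were 4, and DESeq2 passed 2, Adamts9 and Adamts14. Control replicate 11 weighed on this test, since 5 members passed without it (Adamts2, Adamts5, Adamts9, Adamts14 and Adamtsl2). For Adamts12 the interaction was 0.16 with all libraries and 1.07 without control replicate 11, and it passed in neither fit. The small difference of Adamts12 between the sets thus rested on that library.

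**Figure D3:**
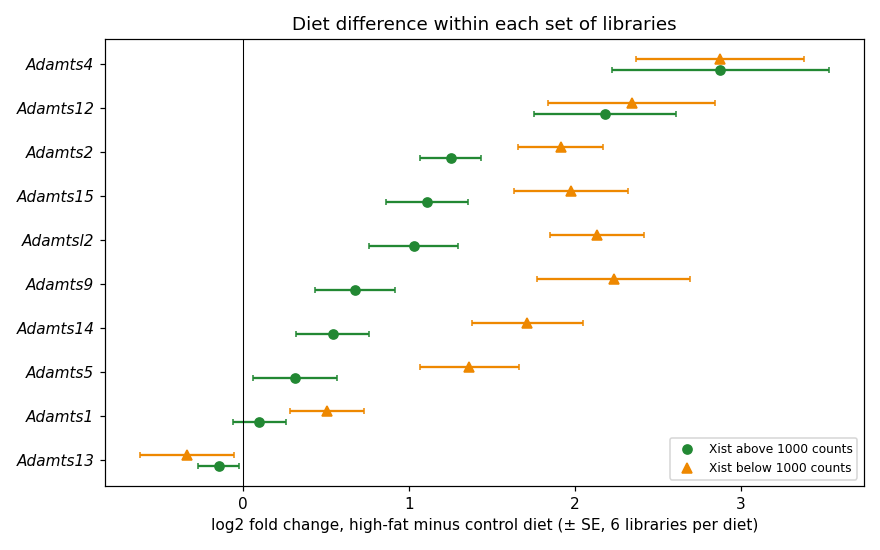
Log2 fold change of each member between the diets (± SE) within libraries with Xist above 1000 counts (green circles) and below (orange triangles), 6 libraries per diet in each. For Adamts9 the values are 0.68 and 2.23, and for Adamts4 2.88 and 2.88.

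From library to library within a diet, some members varied with Col1a1. Correlations used log2(CPM + 0.1) centred on each set of libraries, with permutations within sets and adjustment over all 40 values of r and rho. In high-fat livers Adamts2 had r = 0.79 (adjusted permutation p = 0.0339) and rho = 0.80 (adjusted p = 0.0388), and in control livers r = 0.82 and rho = 0.83 (both adjusted permutation p = 0.0339). Adamts14 gave r = 0.87 (adjusted permutation p = 0.0132) and rho = 0.87 (adjusted p = 0.0231) on the control diet, and r = 0.21 and rho = 0.24 on the high-fat diet (adjusted p = 0.632 and 0.589). Adamtsl2 gave r = 0.89 (adjusted permutation p = 0.0132) and rho = 0.69 (adjusted p = 0.0388) on the control diet and r = 0.72 (adjusted p = 0.0388) and rho = 0.71 (adjusted p = 0.0691) on the high-fat diet. In all, 10 of the 40 values passed, the last being r = 0.72 of Adamts5 on the high-fat diet. When the 2 libraries farthest from the member's median were dropped 0 passed, with 5 at an unadjusted permutation p under 0.05, so the calls rested on the full 12 libraries of a diet. The values of the 10 stayed positive. Adamts2 then had r = 0.64 in high-fat and 0.61 in control livers, Adamtsl2 had 0.61 and 0.62, and Adamts14 had 0.83 on the control diet (unadjusted permutation p = 0.00703).

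Genes most like each member over the 24 libraries, after the mean of each diet and set was removed, are given as a description among 13775 genes. The nearest to Adamts2 were Angptl2 (Pearson r = 0.90), Col6a3 (0.88) and Pdgfrb (0.87), the last a receptor of stellate cells and pericytes. Nearest to Adamtsl2 were Timp2 (0.89), the protease gene Htra1 (0.88) and Col6a3 (0.87). Adamts13 was nearest to Angptl6 (0.86), Pdzk1 (0.82) and Ecm1 (0.81), and Adamts15 to Eml1 (0.89), Mmp7 (0.86) and Tspan3 (0.82). Adamts5 was nearest to Cftr (0.82), a chloride channel of bile duct cells, then Mfap1a and Itm2a (both 0.74). Adamts14 was nearest to Git1 (0.85), Cd14 and P2ry6 (both 0.84), Adamts9 to Rab11fip5 (0.86), Swap70 (0.85) and H2-M2 (0.83), Adamts12 to Dgke (0.84), Pde4a (0.81) and Rab3il1 (0.77), and Adamts1 to Dpp8, Smcr8 (both 0.86) and Trappc13 (0.85). The highest values for Adamts4, the member with few counts, were 0.71 (5430427O19Rik), 0.70 (Dcaf12l1) and 0.69 (Gm45351). Among pairs of members, r was highest for Adamts2 and Adamtsl2 (0.82) and lowest for Adamts13 and Adamts15 (-0.44). For the nearest genes Spearman rho was lower than r in some cases, as for Adamts13 and Angptl6 (0.65), and higher in others, as for Adamts9 and Swap70 (0.89). All these values share the libraries and their composition.

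High-fat replicate 9 held the highest level of Adamts2, Adamts5, Adamts9, Adamts14, Adamts15 and Adamtsl2 and the lowest of Adamts13. That library also had Krt19, a keratin of bile duct cells, at 48.1 CPM, where the other high-fat libraries had 1.01 to 7.57 CPM. The summed cholangiocyte markers ran from 5.28 to 151.4 CPM in high-fat and from 4.78 to 13.99 CPM in control livers, and Alb, the main hepatocyte marker, was lowest in that library. Without it Adamts5 changed by 0.81 (adjusted p = 0.0145) and lost its call, while Adamts9 kept a rise of 1.30, Adamts15 of 1.37 and Adamtsl2 of 1.52.

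The listed inhibitors and cell-surface receptors of these proteases did not move as a group. Timp1 rose by 3.62 on the log2 scale (SE 0.48, edgeR adjusted p = 3.61e-06). Timp2 rose by 1.38 (SE 0.25), at 1.93 with Xist below and 0.69 above 1000 counts, the latter not called (edgeR adjusted p = 0.0346). A2m, a broad protease trap, rose by 2.30 (SE 0.69) from 23 counts in all on the control diet. A2m was called in neither set, at 1.34 with Xist below (edgeR adjusted p = 0.226) and 4.03 above 1000 counts (adjusted p = 0.0129). In 2 of 12 high-fat libraries A2m was above every control library. Timp3, the main TIMP that blocks ADAMTS4 and ADAMTS5, was at 43.3 ± 16.3 and 32.8 ± 9.57 CPM (SD) on the high-fat and control diet and was not called (log2 difference 0.40, SE 0.18, adjusted p = 0.0755). With Xist below 1000 counts Timp3 was called higher at 0.90 (adjusted p = 0.00713), against -0.14 above, and the interaction of diet and set was 1.03 (adjusted p = 0.0226). Lrp1, the receptor that takes up ADAMTS4 and ADAMTS5, was not called at -0.21 (SE 0.10). Sdc4 changed by -0.49 (SE 0.14, edgeR adjusted p = 0.0074), under the fold threshold, and was not called. With Xist below 1000 counts Sdc4 was called lower at -0.70 (adjusted p = 0.00453), with an interaction that did not pass (adjusted p = 0.282). None of the 5 genes of activation and secretion was called: the proprotein convertases Furin, Pcsk5 and Pcsk6, and Pofut2 and B3glct, which add sugars to thrombospondin repeats, lay between -0.23 and 0.28. At an adjusted p of at most 0.05 Pofut2 alone of these passed (0.27, adjusted p = 0.00829), at 0.48 with Xist below and 0.06 above 1000 counts. Of the hyaluronan synthases 1 was tested, Has3, and it was not called. Over all 25 tested genes of the substrate, partner and regulator lists 12 were higher and 1 was lower. Of all genes, 13.2% and 4.99% were. The median log2 change of the 25 was 0.90.

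The table held 15 other ADAMTS family genes. Of the 11 tested, 4 were higher and none lower, where 13.2% and 4.99% of all genes were. Their median log2 change was 0.62. Adamts10, a fibrillin-associated protease, was at 13.8 to 30.0 CPM in high-fat and 7.43 to 13.3 CPM in control livers, without overlap, and rose by 0.80 (SE 0.12, edgeR adjusted p = 1.26e-05). Adamts7, which like ADAMTS12 cleaves COMP, rose by 0.93 (SE 0.17) and Adamtsl1 by 1.31 (SE 0.30). Adamts16 rose by 3.54 (SE 0.60) from 18 counts over all control libraries to 271 over the high-fat libraries. Adamts3, the remaining procollagen N-proteinase, had a median of 2 counts on each diet and was not called. Not called either were Adamts6 at 0.10, Adamts17 at 0.12, Papln at -0.27, Adamtsl3 at 0.72 (edgeR adjusted p = 0.0828), Adamtsl4 at 0.53 (adjusted p = 0.0207) and Adamtsl5 at 0.62 (adjusted p = 0.0265). The diet differences of Adamts10, Adamts16, Adamtsl1 and Adamtsl4 were larger with Xist below 1000 counts by the edgeR interaction test. Adamts8, with at most 7 counts in any library, was not tested. Adamts18, Adamts19 and Adamts20 had 0 counts in every library.

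**Figure D4:**
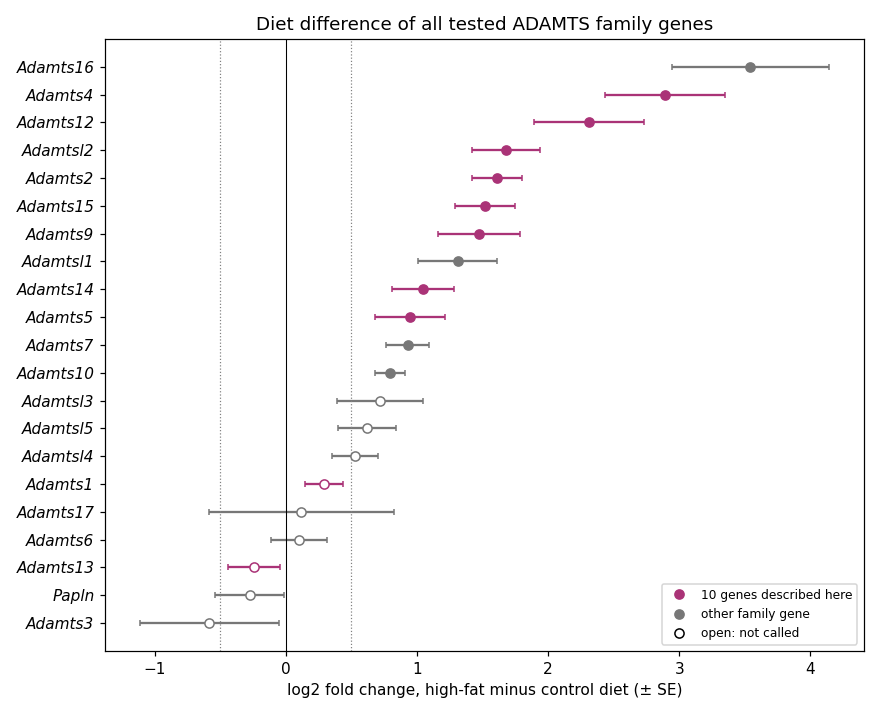
Log2 fold change between the high-fat and control diet (± SE, 12 libraries per diet) of the 10 members (purple) and the other 11 tested family genes (grey), with filled points for called genes and dotted lines at the fold threshold of 0.5. Adamts16 at 3.54 and Adamts4 at 2.89 are highest, and Adamts13 is the lowest member at -0.24.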

How the data were processed

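The authors deposited 1 table of raw counts per Ensembl gene for 24 mouse liver libraries (poly(A)). The submitters' processing notes name mm10 and STAR 2.7.3a. The counting tool, annotation and strand setting used for mouse are not given in the sources used here. Columns were matched to libraries by title and grouped by diet label. Symbols, coordinates and exon lengths came from GENCODE M21, where 51745 of 56205 IDs matched, and the other 4460 held 0.0723% of the counts. The labels do not say that libraries came from separate mice, so p-values measure the spread between these libraries.

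Genes needed 1 count or more in 12 libraries or more and were tested with edgeR 4.0.16 in R 4.3.3 (TMM, quasi-likelihood, no term beside diet, Benjamini-Hochberg adjustment). The SE is the absolute log2 fold change over the square root of F. On simulated counts for the 17913 genes, the diet test recovered 75% of 200 genes changed by 1.5 on the log2 scale and called 1 unchanged gene. The simulation changed as many genes up as down and held no set difference, so it cannot speak to the choice of scaling. Ratios and correlations used permutation tests (100000 resamples, a pseudocount of 0.1, Python 3.11.15), exact for 6 against 6 libraries, with calls at an adjusted p up to 0.05. No libraries of a diet were alike within sampling noise (lowest chi-square per degree of freedom 9.48). The alternatives were DESeq2 1.42.0, limma-voom 3.58.1, other scalings, filters and thresholds, a replicate block, the sets of libraries and each library left out. A fit without the libraries of highest and lowest scaling factor was added after seeing the data. All 10 members, the other family genes and the 3 genes most like each member are named. So are genes of the substrate, partner and regulator lists that were called or are substrates or partners. Cell type markers are given mainly as counts for each list. Members, lists and tests were chosen with earlier results of these data known. Zinc-site stretches came from M21 transcripts, and promoters from RefSeq.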

Additional observations from a re-analysis of the deposited data

Results flagged for a closer look

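The diet difference of 4 other family genes was not the same in the sets of libraries with few and with many Xist counts, by the edgeR interaction test adjusted over all genes. The log2 change was larger with Xist below 1000 counts by 0.65 for Adamts10 (SE 0.19, edgeR adjusted p = 0.0268), by 3.82 for Adamts16 (SE 1.10, adjusted p = 0.0258), by 1.64 for Adamtsl1 (SE 0.53, adjusted p = 0.0454) and by 1.32 for Adamtsl4 (SE 0.24, adjusted p = 0.00109). Adamtsl4, which was not called over all libraries, changed by 1.26 with Xist below 1000 counts (adjusted p = 4.4e-05) and by -0.07 above (adjusted p = 0.832). The same test passed in 4 genes of the pathway lists, by 1.35 for Fbn1 (SE 0.37, edgeR adjusted p = 0.0202), 1.23 for Timp2 (SE 0.39, adjusted p = 0.0456), 1.03 for Timp3 (SE 0.29, adjusted p = 0.0226) and 0.42 for Pofut2 (SE 0.13, adjusted p = 0.0358).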

How the results depend on the processing

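The 8 called members had positive changes in 298 of 298 alternative settings. Settings that changed only the thresholds kept the main fit, so the sign could not change in them. Most of the others left out 1 library and shared the rest with the main fit. Leaving out 1 library at a time called 7 to 8 members higher and 0 lower. Requiring at least 10 counts in every library left 5 members testable. Of these, 3 were called higher, where 1226 of all 11322 genes tested were. The libraries with Xist above 1000 counts alone called 3 members, where 2.9% of all genes were called higher. Adamts5 lost its call in 13 of 38 alternatives, limma-voom (adjusted p = 0.0169) among them. The labels do not say that a shared number marks paired mice. The deviations of same-numbered libraries correlated at over 0.1 for 11 of 12 numbers (range -0.09 to 0.36), and 2 of 12 numbers were best matched to their own. With the replicate block 7 members were called, as Adamts5 had an adjusted p of 0.0178, and all genes gave 2063 higher and 844 lower.

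Over all genes, higher calls numbered 3827 with library totals, 1226 with at least 10 counts in every library, 3709 at an adjusted p of at most 0.05 with no fold threshold and 520 with Xist above 1000 counts. Lower calls numbered 226 with library totals, 3388 with no fold threshold, 216 with an absolute log2 fold change over 1, and 158 and 1431 with Xist above and below 1000 counts. Only with library totals did a member change sign, Adamts13 at 0.0048. The interaction of diet and set passed in 2 members with DESeq2 and in 0 to 5 with 1 library left out, where it ran from -0.95 to 0.37 for Adamts4 and from -0.071 to 1.07 for Adamts12.

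The 4 ratios kept their direction and call in each alternative. Of the correlations with Col1a1, 0 of 40 passed without the 2 farthest libraries, and 7 of the 10 that had passed did so in each other setting. Values that had not passed and changed sign were, with library totals, rho of Adamts13 in high-fat livers (-0.02797) and of Adamts5 in control livers (0.04196). Without the 2 farthest libraries they were rho of Adamts12 (-0.079) and r of Adamts13 (0.035) in high-fat livers, and in control livers r and rho of Adamts1 (-0.030 and -0.10), r of Adamts5 (-0.39) and rho of Adamts13 (-0.079). Without subtraction of set means they were, on the high-fat diet, r and rho of Adamts1 (0.25 and 0.25) and of Adamts4 (0.47 and 0.36) and rho of Adamts13 (-0.64). The causes were not tested. Adamts4 and Adamts12 rest on few control counts, where counting error is large.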
